A study of Homo sapiens with 7 samples.

Results

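Chemokine ligands are small secreted or membrane-anchored proteins that direct the movement of leukocytes through G protein-coupled receptors. The 10 ligand genes described here, CCL5, CCL2, CCL20, CXCL1, CXCL2, CXCL8, CXCL10, CXCL12, CXCL16 and CX3CL1, were picked by name from the 57189 genes of the count table, and each of the 10 was found there. RNAseq counts came from RH30, an established rhabdomyosarcoma cell line with a wild-type genotype label. Of the 7 samples, 4 were untreated and 3 had received BV6 at 5 µM over 24 h. BV6 is a Smac mimetic, a small molecule that binds inhibitor of apoptosis proteins. The comparison addressed which genes change in expression upon BV6 treatment. Samples carry the replicate numbers 1 to 4, and BV6 replicates 2, 3 and 4 share a label in their titles with the untreated replicates of the same number, while untreated replicate 1 has no such partner. Total counts per library were 77220882, 56684781, 59849682 and 62049652 for untreated replicates 1 to 4, and 57464589, 59465798 and 54070030 for BV6 replicates 2 to 4.

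Many chemokine genes are known targets of NF-κB, a transcription factor family whose non-canonical arm is held back by cellular inhibitor of apoptosis proteins. Others, such as CXCL10, are best known as interferon-induced genes, and CXCL12 is produced constitutively in many tissues. CXCL16 and CX3CL1 differ from the other ligands in that they are made as transmembrane proteins and released by proteases.

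Upon BV6 treatment, CCL5 was up-regulated from a few counts per library to between 92 and 201. CX3CL1 was about 2.11 times as high in mean CPM (counts scaled to 1e6 of the normalized library size), and its call depended on the test. The other 8 ligands did not pass the test or had too few counts to enter it. A gene was called at an adjusted p under 0.05 in edgeR's quasi-likelihood test, which was fitted to the 23124 genes that passed a filter on low counts. Of all genes tested, 104 were called (0.45%), and 91 of them were higher in BV6-treated cells (0.394%). The number depended on the test: DESeq2 called 447 of the same genes (1.93%) and 408 of all genes with a count (1.7% of those given an adjusted p), limma-voom called 109 (0.471%), and edgeR called 242 without the filter and 218 (0.943%) with a replicate block. Leaving out any of 6 samples, each but BV6 replicate 3, left 38 to 65 called genes, and CCL5 was among them each time. Among the ligands, 8 of 10 passed the filter and 1 of these was called, CCL5. A count of 3 per library was taken as the limit of detection, which corresponded to 0.0389 to 0.0557 CPM.

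CCL5 attracts T cells, NK cells and monocytes. Its raw counts were 6, 9, 6 and 4 in untreated replicates 1 to 4, and 92, 160 and 201 in BV6 replicates 2, 3 and 4. All 3 BV6-treated samples lay far above all 4 untreated samples, which were themselves close to the limit of detection. Untreated samples had a mean level of 0.101 ± 0.0423 CPM (SD, n = 4), and BV6-treated samples one of 2.66 ± 1.05 CPM (SD, n = 3). This corresponded to a log2 fold change of 4.72 with a standard error of 0.39 and a 95% interval of 3.84 to 5.60 (adjusted p = 0.00167, edgeR quasi-likelihood test). The exact two-sided permutation test on CPM gave p = 0.0571, the smallest that the 35 arrangements of 4 against 3 samples can give, so that this test cannot pass 0.05 for any gene here.

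The spread between BV6-treated samples was wide for CCL5. BV6 replicate 4 had the highest CCL5 count and untreated replicate 4 the lowest, and the CPM ratio within this pair was 57.7 (95% interval 22.2 to 214 with each count taken as an independent read). In the pair of replicate 3 the ratio was 26.2 (11.8 to 72.5), and in that of replicate 2 it was 10.2 (5.15 to 23.1). The direction was therefore the same in 3 of 3 pairs. Over all genes and samples, counts of 2 were more frequent than counts of 1 (23198 against 14130 values), and counts of 4 than counts of 3 (11162 against 7292). Such an excess of even counts can arise where both mates of a read pair are counted. How mates were counted is not stated. Each library held 54070030 counts or more, which is above the highest number of sequencing reads that the authors give for any library. The counts are therefore not independent reads, and the intervals above are too narrow. With each count halved and rounded up, the intervals were 15.6 to 485 in replicate 4, 8.65 to 130 in replicate 3 and 3.67 to 29.7 in replicate 2. CCL5 passed the filter on low counts only through the BV6 group: 3 of 3 BV6-treated and 0 of 4 untreated samples reached the required 0.168 CPM. The annotation places CCL5 (chr17:35871491-35880793, minus strand, GRCh38) opposite a long non-coding RNA gene along its whole length, and since the use of strand in counting is not stated, reads of both genes may be included.

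**Figure D1:**
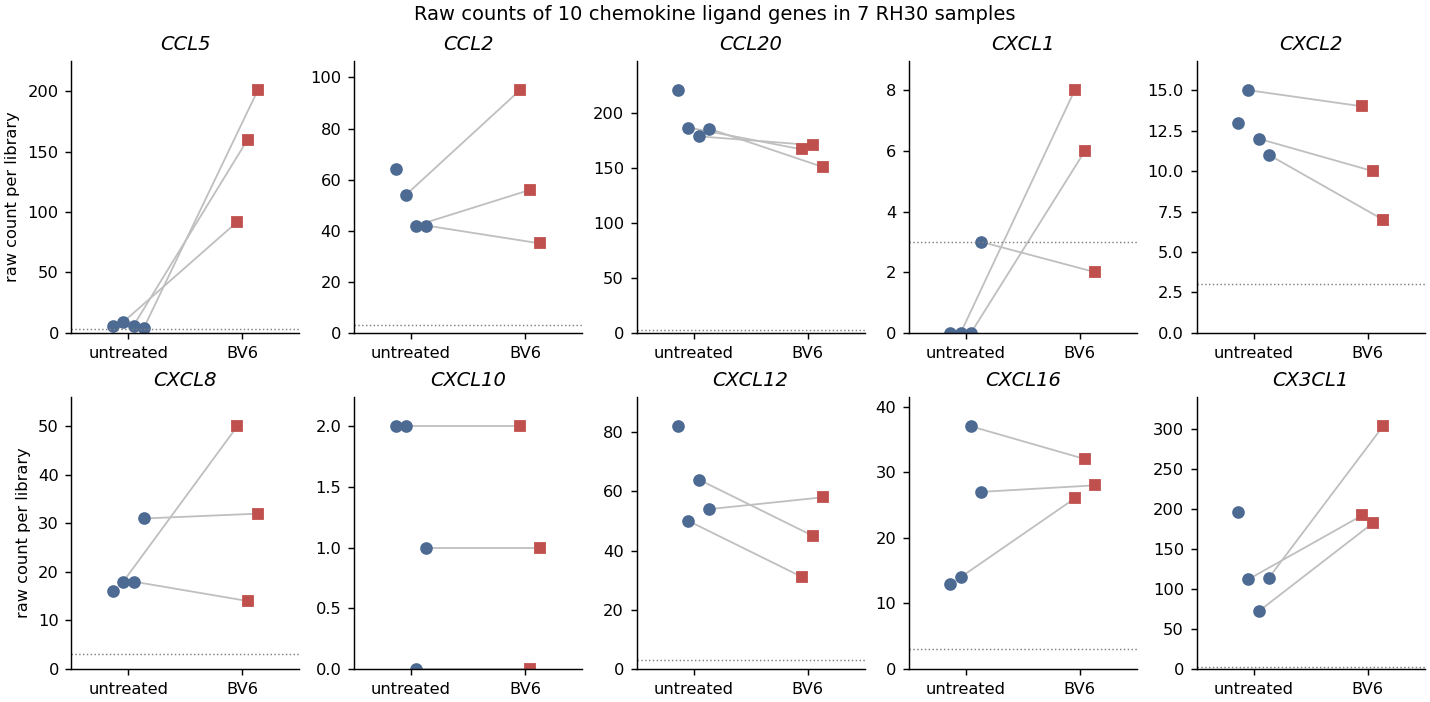
Raw counts per library (vertical axis, from 0, on a separate scale for each gene) of the 10 ligand genes in 4 untreated samples (circles) and 3 BV6-treated samples (squares). Grey lines join samples that share a label, and the dotted line marks 3 counts; CCL5 lies at 4 to 9 counts in untreated and 92 to 201 in BV6-treated samples.

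CX3CL1 (fractalkine, chr16:57372477-57385044, plus strand, GRCh38) is a membrane-bound ligand for CX3CR1 on NK cells, T cells and monocytes. It had 196, 112, 72 and 114 counts in untreated replicates 1 to 4 and 192, 182 and 303 counts in BV6 replicates 2, 3 and 4. Raw counts of the groups overlapped through untreated replicate 1, the most deeply sequenced library, whereas in CPM the lowest BV6-treated sample (2.97) lay above the highest untreated one (2.54). The log2 fold change was 1.07 with a standard error of 0.30 and a 95% interval of 0.41 to 1.74. The gene had an unadjusted p of 0.00514 and was not called (adjusted p = 0.257, edgeR quasi-likelihood test), although it was higher in 3 of 3 pairs. DESeq2's Wald test called it on the same genes (adjusted p = 0.0467) and on all genes with a count (adjusted p = 0.0491). With the replicate block, edgeR gave a log2 fold change of 1.23 (95% interval 0.74 to 1.73, unadjusted p = 0.000497, adjusted p = 0.051), and CX3CL1 was not called. Over all alternatives its adjusted p ran from 0.0467 to 0.519.

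At an unadjusted p under 0.05, 2 of the 8 tested ligands passed, CCL5 and CX3CL1, while 8.39% of all genes tested did. The same 2 ligands had every BV6 CPM above every untreated CPM, which held for 4.94% of all genes tested. They were also the 2 ligands that were higher in 3 of 3 pairs, against 15.5% of all genes tested, while CCL20 and CXCL2 were lower in 3 of 3 pairs, against 17.8%. The median log2 fold change of the 8 ligands was 0.46, and that of all genes tested was -0.01. CCL5 was among the 8 only through the BV6 group, since 0 of 4 untreated samples reached the CPM that the filter required. The counts and the median that include CCL5 are therefore a description and no test. The 95% interval of CCL5 began at 3.84, above the upper bound of each of the other 7 tested ligands, of which that of CXCL8 reached highest at 1.85.

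**Figure D2:**
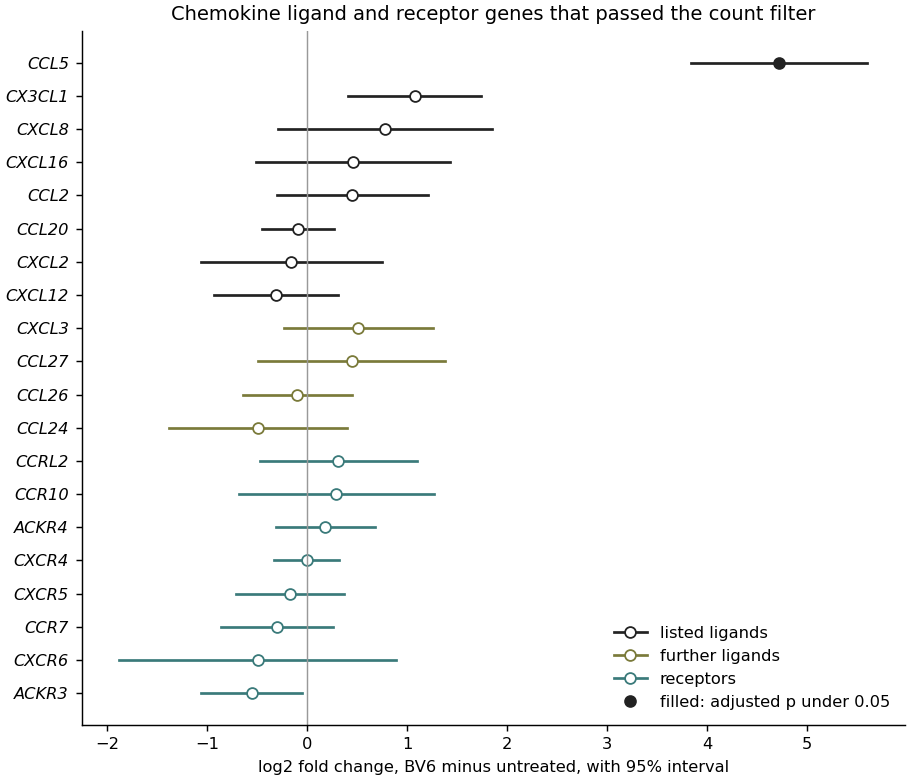
Log2 fold change (BV6 minus untreated, horizontal axis) with its 95% interval for the 8 listed ligands, 4 further ligands and 8 receptors that passed the count filter. The filled point marks the adjusted p under 0.05 of CCL5 at 4.72; the intervals of CX3CL1 and ACKR3 do not include 0, and those of the other genes do.

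CCL2 and CCL20 attract monocytes and CCR6-positive lymphocytes, respectively. CCL2 had 64, 54, 42 and 42 counts in untreated and 95, 56 and 35 counts in BV6-treated samples. BV6 replicate 2 was the highest and BV6 replicate 4 the lowest of the 7 samples, so the treated group enclosed the untreated one. The log2 fold change of CCL2 was 0.45 (95% interval -0.30 to 1.21, adjusted p = 0.762, edgeR), and it was -0.01 without BV6 replicate 2 and 0.71 without BV6 replicate 4. CCL20 had 221, 187, 179 and 186 counts in untreated and 167, 171 and 151 counts in BV6-treated samples. Its CPM values overlapped between the groups, at 3.04 ± 0.20 (SD, n = 4) and 2.86 ± 0.103 (SD, n = 3). With a log2 fold change of -0.09 and a 95% interval of -0.45 to 0.27 (adjusted p = 0.897, edgeR), CCL20 had the narrowest interval of the 8 tested ligands, and without untreated replicate 2 its log2 fold change was -0.05.

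CXCL8, CXCL1 and CXCL2 attract neutrophils through CXCR1 or CXCR2, and their genes lie on chromosome 4. CXCL8 had 16, 18, 18 and 31 counts in untreated replicates 1 to 4 and 50, 14 and 32 counts in BV6 replicates 2, 3 and 4. BV6 replicate 2 stood highest, while BV6 replicate 3 had the fewest counts and in CPM (0.228) lay above untreated replicate 1 (0.208) and below the other untreated samples. The groups overlapped, and the log2 fold change of 0.78 had a 95% interval of -0.29 to 1.85 (adjusted p = 0.717, edgeR). It was 0.31 without BV6 replicate 2 and 1.17 without BV6 replicate 3, where the gene was not called either (unadjusted p = 0.0192, adjusted p = 0.526, edgeR). CXCL2 was at 13, 15, 12 and 11 counts in untreated and 14, 10 and 7 counts in BV6-treated samples, with a log2 fold change of -0.16 (95% interval -1.06 to 0.75, adjusted p = 0.936, edgeR); with 1 sample left out the log2 fold change ran from -0.44 (BV6 replicate 2) to 0.02 (BV6 replicate 4). CXCL1, CXCL2 and CXCL3 are close copies of each other, and how reads shared between them were assigned is not stated, so their counts are uncertain.

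CXCL1 failed the filter on low counts. It had 0, 0, 0 and 3 counts in untreated and 8, 6 and 2 counts in BV6-treated samples. BV6 replicates 2 and 3 were above the limit of detection and BV6 replicate 4 was below it, as were 3 of the 4 untreated samples. The exact two-sided permutation test on CPM gave p = 0.114. In the edgeR fit without the filter, CXCL1 had an unadjusted p of 0.0317 and an adjusted p of 0.698. CXCL10, a ligand of CXCR3 on activated T and NK cells, was at 2, 2, 0 and 1 counts in untreated and 2, 0 and 1 counts in BV6-treated samples (p = 0.971, exact permutation test). It remained under the limit of detection in each of the 7 samples, so no fold change is given. A difference that stayed under this limit was not detectable at this depth. Its gene lies within ART3 on the opposite strand. With count totals above the reported read numbers and an excess of even counts, such low counts are likely to stand for fewer fragments.

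CXCL12 is the ligand of CXCR4 and ACKR3. It had 82, 50, 64 and 54 counts in untreated and 31, 45 and 58 counts in BV6-treated samples. The lowest 2 values came from BV6 replicates 2 and 3, while BV6 replicate 4 had the highest CPM of the 7 samples. The log2 fold change was -0.31 (95% interval -0.93 to 0.31, adjusted p = 0.796, edgeR), and it was -0.10 without BV6 replicate 2 and -0.59 without BV6 replicate 4. CXCL16, the transmembrane ligand of CXCR6, had 13, 14, 37 and 27 counts in untreated and 26, 32 and 28 counts in BV6-treated samples. All 3 treated samples lay within the range of the untreated ones, which varied more. Its log2 fold change was 0.46 (95% interval -0.51 to 1.42, adjusted p = 0.806, edgeR), and it was 0.21 without untreated replicate 1 and 0.82 without untreated replicate 3. The ends of CXCL16 share bases with MED11 and ZMYND15 on the opposite strand.

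Levels of different genes were compared per kilobase of exon. In untreated samples CCL20 was the highest of the 10 ligands at 1.91 ± 0.125 CPM per kb (SD, n = 4), followed by CCL2 at 0.409 ± 0.0682 and CX3CL1 at 0.318 ± 0.0932, and the latter pair lay within their spread of each other. CXCL12, CXCL2, CXCL16 and CXCL8 had means of 0.158, 0.145, 0.131 and 0.128 CPM per kb and did not differ beyond their spread. CCL5 followed at 0.0738 ± 0.0310 CPM per kb (SD, n = 4). In BV6-treated samples CCL5, at 1.95 ± 0.769 CPM per kb (SD, n = 3), was at the level of CCL20, at 1.79 ± 0.0644 CPM per kb (SD, n = 3), and the 2 were not separated beyond their spread. CX3CL1 came next at 0.672 ± 0.239 CPM per kb (SD, n = 3), with CCL2 at 0.561 ± 0.280 within its spread.

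**Figure D3:**
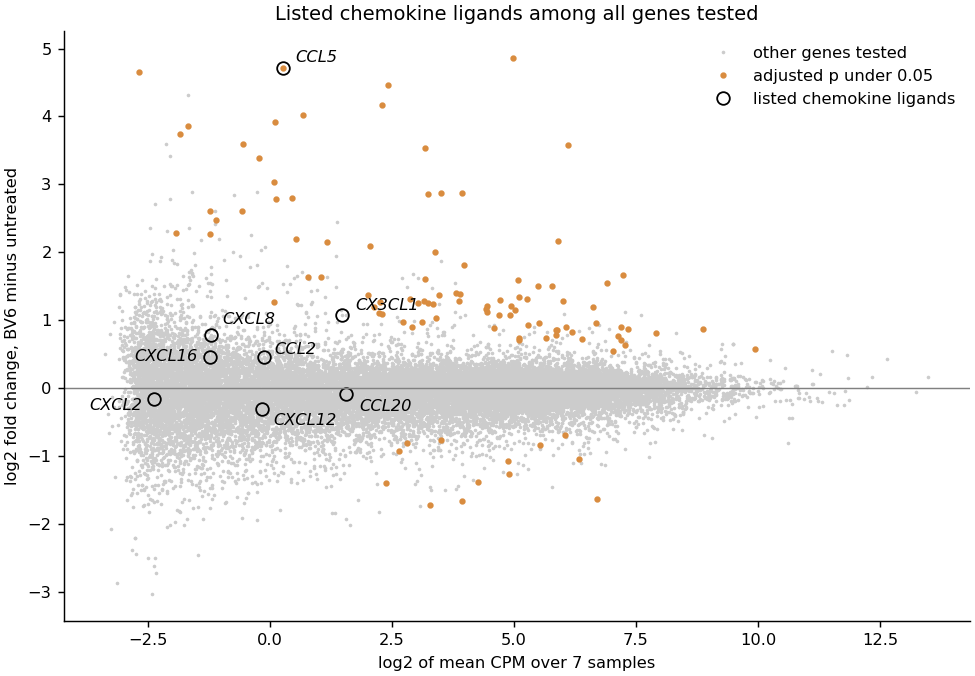
Log2 fold change (BV6 minus untreated, vertical axis) against the log2 of the mean CPM over 7 samples (horizontal axis) for the 23124 genes tested. Open circles mark the 8 tested ligands and orange points the 104 called genes; of the ligands, CCL5 is a called gene.

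Of 38 further chemokine ligand genes that were looked up, 36 were in the count table, 4 passed the filter and 0 were called by edgeR, against 0.45% of all genes tested. DESeq2 and limma-voom also called 0, and 0 had an unadjusted p under 0.05, against 8.39% of all genes tested. At these shares 0 of 4 genes is no result. Those tested were CXCL3 (28 to 70 counts in untreated and 45 to 86 in BV6-treated samples), CCL24 (21 to 56 and 15 to 35), CCL26 (41 to 57 and 39 to 50) and CCL27 (14 to 40 and 21 to 32). For each of these 4 the ranges of the groups overlapped. Another 4 ligands reached 3 counts in every sample of a group without passing the filter. These were CCL3, CCL4, CCL21 and XCL2, each with at most 14 counts in any sample. CCL13 and PF4 had 0 counts in each of the 7 samples. CXCL9 and CXCL11, which like CXCL10 bind CXCR3, had at most 4 and 9 counts.

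**Figure D4:**
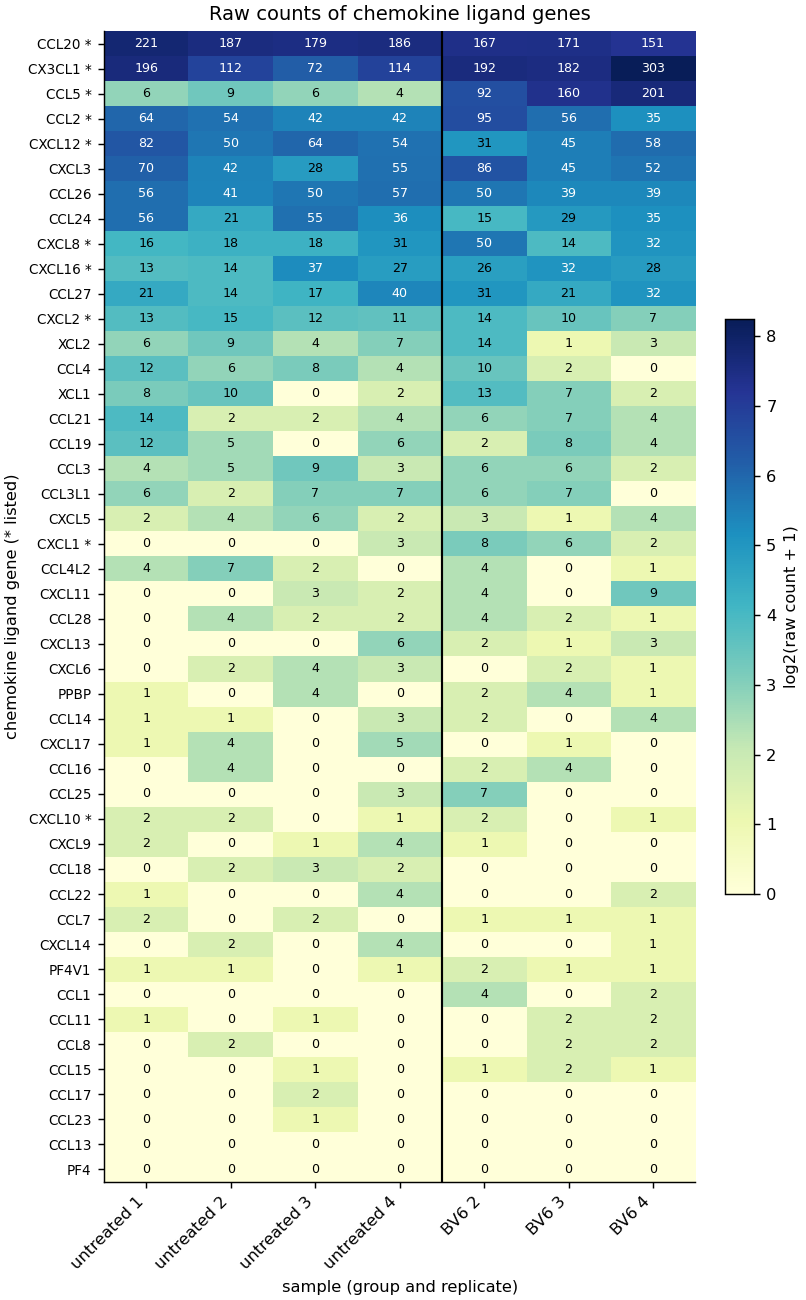
Raw counts of the 10 listed (asterisk) and 36 further chemokine ligand genes in 7 samples, ordered by their total, with the color giving log2(count + 1). CCL5 has 4 to 9 counts left of the line (untreated) and 92 to 201 right of it (BV6), and most genes in the lower part stay under 10 counts.

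Chemokine receptors were examined on the same cells. Of 23 receptor genes, 8 passed the filter and 0 were called by edgeR, DESeq2 or limma-voom, against 0.45%, 1.93% and 0.471% of all genes tested. At such shares 0 of 8 genes is no result. At an unadjusted p under 0.05 there was 1, against 8.39% of all genes tested. CXCR4 was the most abundant, with 3820, 2654, 4034 and 3179 counts in untreated and 2784, 3714 and 2730 counts in BV6-treated samples. Its groups overlapped, and the log2 fold change was -0.005 with a 95% interval of -0.33 to 0.32 (adjusted p = 0.994, edgeR). ACKR3, an atypical receptor that takes up CXCL12, had 816, 576, 923 and 666 counts in untreated and 340, 448 and 572 counts in BV6-treated samples. In CPM, BV6 replicates 2 and 3 were lower than any untreated sample, and BV6 replicate 4 lay within the untreated range. ACKR3 was lower in 3 of 3 pairs, against 17.8% of all genes tested. The log2 fold change of -0.55 (95% interval -1.06 to -0.05) had an unadjusted p of 0.0354 and was not called (adjusted p = 0.559, edgeR). CCR1 and CCR3, which bind CCL5, had at most 8 and 7 counts. CCR6, the receptor of CCL20, had 2 to 10 counts, and the atypical receptors ACKR1 and ACKR2 had at most 6 and 17. CXCR6, the receptor of CXCL16, had 10 to 17 counts in untreated and 1 to 12 counts in BV6-treated samples (adjusted p = 0.85, edgeR).

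Among 8 genes for proteases and proteoglycans that release, cleave or bind chemokines, 7 were tested and 1 was called, against 0.45% of all genes tested. This was MMP9, a secreted protease that trims several chemokines, with 39, 26, 17 and 17 counts in untreated and 182, 60 and 206 counts in BV6-treated samples. Each BV6-treated sample lay above each untreated one, and BV6 replicate 3 was the lowest of the treated samples. The log2 fold change was 2.80 (95% interval 1.78 to 3.81, adjusted p = 0.0363, edgeR). Among fits with 1 sample left out, the call held only without BV6 replicate 3 (adjusted p = 0.00184, edgeR). Leaving out any of the other 6 samples ended it, with adjusted p up to 0.136. The log2 fold change stayed at 2.44 to 3.20 in these fits. The call also held in edgeR with the replicate block (adjusted p = 0.0180) and with halved counts (adjusted p = 0.0396). DESeq2 called MMP9 and limma-voom did not, and its gene is overlapped by the antisense gene SLC12A5-AS1. ADAM10 and ADAM17, the sheddases known to release CXCL16 and CX3CL1, had log2 fold changes with 95% intervals of -0.30 to 0.32 and -0.07 to 0.50 and were not called. These 8 genes were chosen with earlier results of these data known, so the count of called genes is a description and no test.

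Of 15 genes for regulators of chemokine transcription and mRNA decay, all were tested and 3 were called, each of them higher upon BV6 treatment, against 0.394% of all genes tested. NFKBIA encodes the inhibitor IκBα and is itself an NF-κB target. It had 1521, 1961, 1107 and 1387 counts in untreated and 8621, 5258 and 4438 counts in BV6-treated samples. The groups were well separated, with BV6 replicate 2 the highest, and the log2 fold change was 2.17 with a standard error of 0.28 (adjusted p = 0.0116, edgeR). NFKB2, which encodes the p100 precursor of the non-canonical arm, had 7225, 4764, 3389 and 4616 counts in untreated and 16229, 10794 and 14668 counts in BV6-treated samples. Here too the groups did not overlap, with a log2 fold change of 1.67 and a standard error of 0.21 (adjusted p = 0.011, edgeR). Both calls were lost without untreated replicate 4, with adjusted p = 0.0536 for NFKB2 and 0.0579 for NFKBIA (edgeR). They held without any other single sample. Without untreated replicate 4 the log2 fold changes were 1.65 for NFKB2 and 2.14 for NFKBIA. DESeq2 and limma-voom called both genes, as did edgeR with the replicate block (adjusted p = 0.000325 for each).

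IRF1, a transcription factor of interferon responses, had 1355, 1237, 897 and 957 counts in untreated and 2589, 2097 and 1626 counts in BV6-treated samples. Its groups did not overlap either, and the log2 fold change was 1.07 with a standard error of 0.19 (adjusted p = 0.0478, edgeR). On the opposite strand, IRF1 is overlapped over its whole annotated length by a protein-coding gene without a symbol, and in part by IRF1-AS1. Among fits with 1 sample left out, the call of IRF1 held only without untreated replicate 2 (adjusted p = 0.0408, edgeR). Leaving out any of the other 6 samples ended it, with adjusted p up to 0.168. The log2 fold change did not fall below 0.889 in these fits. The call also held in edgeR with the replicate block (adjusted p = 0.00801) and with halved counts (adjusted p = 0.0454). DESeq2 and limma-voom called IRF1 as well. RELB and NFKB1 had log2 fold changes of 0.90 and 0.60 and were not called (adjusted p = 0.556 and 0.288, edgeR). RELB overlapped between the groups in CPM and NFKB1 did not. With the replicate number as a block in the fit both were called (adjusted p = 0.0322 and 0.0454, edgeR), so that 5 of 15 regulators were called, against 0.943% of all genes tested in that fit. The list of regulators was chosen with earlier results of these data known, so its counts of called genes are a description and no test.

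Of the 10 ligands, 6 had an entry in the RefSeq promoter table (GRCh38.p14), and CCL5, CCL2, CXCL16 and CX3CL1 had none. The promoters of CXCL8, CCL20 and CXCL10 are shown. CXCL8 and CCL20 were tested and not called, while the NF-κB genes NFKB2 and NFKBIA were called. CXCL10 had too few counts to be tested. CXCL2 and CXCL12, which were also tested and not called, are not shown. Each promoter runs from 250 bases before to 50 bases after the start site, 5′ to 3′ on the gene's strand. Capitals mark matches, on either strand, to a κB-type motif (GGNNTTTCC), an AP-1-type motif (TGANTCA) or an ISRE-type motif (GAAA, any 2 bases, GAAA). CXCL8 lies at chr4:73740319-73740618 (plus strand), CCL20 at chr2:227813592-227813891 (plus strand) and CXCL10 at chr4:76023448-76023747 (minus strand).
CXCL8: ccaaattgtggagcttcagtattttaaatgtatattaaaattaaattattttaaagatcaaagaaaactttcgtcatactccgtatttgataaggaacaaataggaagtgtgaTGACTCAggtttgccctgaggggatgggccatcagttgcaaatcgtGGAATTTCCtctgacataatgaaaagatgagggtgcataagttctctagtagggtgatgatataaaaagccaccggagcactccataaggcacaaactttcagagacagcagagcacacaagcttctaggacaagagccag
CCL20: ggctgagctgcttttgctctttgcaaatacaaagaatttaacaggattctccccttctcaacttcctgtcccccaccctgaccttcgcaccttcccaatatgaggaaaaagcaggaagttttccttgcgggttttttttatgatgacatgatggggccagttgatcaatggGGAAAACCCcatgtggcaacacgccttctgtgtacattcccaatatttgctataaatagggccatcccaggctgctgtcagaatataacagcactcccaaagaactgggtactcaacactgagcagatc
CXCL10: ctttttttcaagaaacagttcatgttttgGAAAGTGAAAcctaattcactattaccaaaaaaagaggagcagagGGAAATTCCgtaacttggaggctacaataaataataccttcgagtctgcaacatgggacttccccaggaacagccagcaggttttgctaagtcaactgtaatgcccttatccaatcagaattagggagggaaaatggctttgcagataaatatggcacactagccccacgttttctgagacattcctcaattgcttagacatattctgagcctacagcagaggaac

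The κB-type motif matched in 5 of the 6 promoters, CCL20, CXCL1, CXCL2, CXCL8 and CXCL10, and in 6.26% of the 35116 promoters in the table. CXCL1 and CXCL2 held 2 matches each. The AP-1-type motif matched in CXCL8 and in 7.71% of all promoters, and the ISRE-type motif in CXCL10 and in 3.57%. CXCL12 held no match to any of the 3. A match describes letters in this window and not a site in use.

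**Figure D5:**
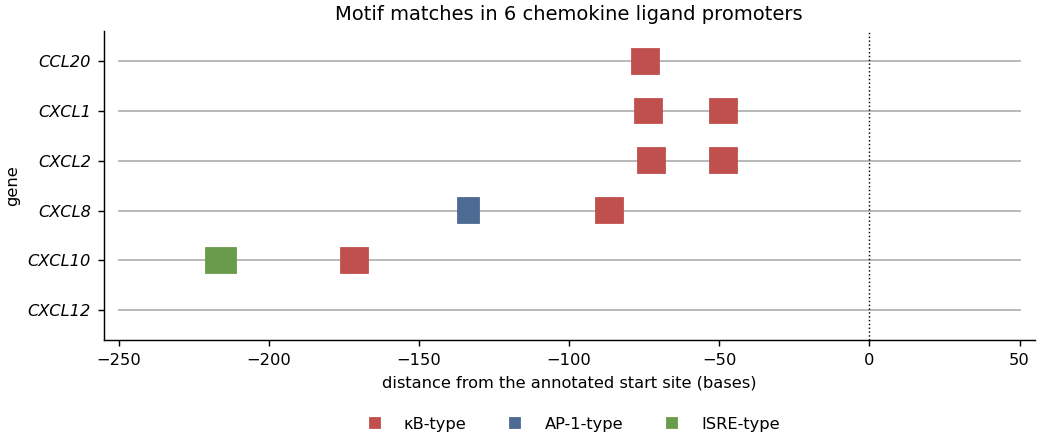
Matches to 3 motifs (colored boxes, drawn to scale) in the promoters of 6 ligand genes, by distance from the annotated start site in bases (horizontal axis, dotted line at 0). The κB-type matches lie between 176 and 45 bases before the start site, and CXCL12 has none.

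The genes whose log2 CPM followed that of CCL5 most closely over the 7 samples were UBA7, PLA2G4C-AS1, JAK1, GBP4 and AC116366.1, with Pearson's r of 0.989, 0.988, 0.986, 0.986 and 0.981. These values are a description, since the samples fall into 2 treatment groups that carry most of the correlation. UBA7, PLA2G4C-AS1 and GBP4 were called, with log2 fold changes of 0.97, 3.04 and 2.28 (adjusted p = 0.0232, 0.00102 and 0.0391, edgeR). GBP4, like CCL5, passed the filter on low counts only through the BV6 group, with 0 of 4 untreated samples at the required CPM, and it was not called with the replicate block (adjusted p = 0.0866, edgeR). JAK1 and AC116366.1 were not called, at log2 fold changes of 0.19 and 1.32 (adjusted p = 0.6 and 0.0654, edgeR). PLA2G4C-AS1 overlaps PLA2G4C on the opposite strand, so that its counts may include reads of that gene. UBA7, JAK1 and GBP4 also overlap other annotated genes.

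Since leukocytes can produce CCL5, markers of other cell types were measured. In these bulk samples, fewer cells of a type and less RNA per cell cannot be told apart. Of 22 leukocyte markers, 22 had at least 3 counts in some sample, 14 were tested and 0 were called by edgeR, DESeq2 or limma-voom, which is no result at 0.45%, 1.93% and 0.471% of all genes tested. At an unadjusted p under 0.05 there was 1, against 8.39% of all genes tested. This was CD68, a macrophage marker, at a log2 fold change of 0.68 and higher in CPM in each BV6-treated than in each untreated sample (unadjusted p = 0.0189, adjusted p = 0.459, edgeR). In 3 of 3 pairs, 3 of the 14 tested markers were lower and 1, CD68, was higher, against 17.8% and 15.5% of all genes tested. The median log2 fold change of the 14 was -0.05. The summed level of the list was 49.98, 37.7, 31.7 and 41.0 CPM in untreated replicates 1 to 4 and 32.7, 20.2 and 43.6 CPM in BV6 replicates 2, 3 and 4. The groups overlapped, and CORO1A was the most abundant marker. Of the defining markers, PTPRC had 11 to 58 counts, CD3E 3 to 19, CD14 14 to 58 and NKG7 297 to 853, and none of these was at 0 in any sample. Other markers of the list, CD3D, KLRD1, NCR1 and TYROBP, were at 0 in at least 1 sample. The part of leukocyte RNA in the CCL5 result was not tested.

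Of 5 endothelial markers, 3 were tested and 0 were called by edgeR, DESeq2 or limma-voom, again no result at the shares of all genes called (0.45%, 1.93% and 0.471%), and 2 had an unadjusted p under 0.05, against 8.39% of all genes tested. These 2 went opposite ways, with log2 fold changes of -0.56 for PECAM1 and 0.86 for VWF (adjusted p = 0.586 and 0.415, edgeR). VWF was higher in CPM in each BV6-treated than in each untreated sample. PECAM1 was lower and VWF higher in 3 of 3 pairs. The sum of the list was 63.4, 49.3, 69.9 and 60.5 CPM in untreated and 27.0, 59.0 and 41.2 CPM in BV6-treated samples. PECAM1 was the most abundant at 1403 to 4799 counts, against 27 to 102 for VWF and 5 to 16 for CDH5, and their part in the results was not tested. The rhabdomyosarcoma label was met by high counts of DES (25328 to 63888), MYOD1 (9652 to 36490) and MYOG (4421 to 12940). Of 12 such markers, 11 were tested and 0 were called by edgeR, DESeq2 or limma-voom, no result at the same shares, and 3 had an unadjusted p under 0.05, against 8.39% of all genes tested. These were CHRNA1, CHRNG and FGFR4, at log2 fold changes of -0.27, -0.99 and -0.73, and MYF6 had at most 5 counts. Of the 11 tested, 5 were lower and 0 higher in 3 of 3 pairs, against 17.8% and 15.5% of all genes tested. The sum of the 12 markers was 3001, 2092, 2220 and 2351 CPM in untreated and 1611, 1264 and 2351 CPM in BV6-treated samples, with BV6 replicate 4 at the level of the untreated samples.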

How the data were processed

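The authors deposited raw counts per gene. Their libraries were poly(A)-selected, stranded and read from both ends; reads were aligned by STAR 2.6.1d (version per the submitters' processing notes) to GRCh38 and counted over the union of each Ensembl gene's isoforms; the counting program, its strand setting and its treatment of shared reads and of the 2 mates are not given in the sources used here.

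Counts were tested with edgeR 4.0.16 in R 4.3.3 (filterByExpr with a minimum count of 10, TMM factors, glmQLFit and glmQLFTest, condition only) and p-values of the 23124 genes kept were adjusted together (Benjamini-Hochberg). CPM refers to TMM-normalized library sizes. Each standard error is the absolute log2 fold change over the square root of F. Exact permutation p-values are 2 times the smaller tail. Intervals of ratios within pairs are exact conditional (Clopper-Pearson) ones; these and the limit of 3 counts cover counting error only, and the intervals with halved counts were added after the data were seen. DESeq2 1.42.0 and limma 3.58.1 (voom) were alternatives, with RLE factors, no filter, a replicate block, halved counts and each sample left out. The tests were tested on simulated data.

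Coordinates, overlaps and exon lengths are from GENCODE release 44 (GRCh38), promoters from RefSeq (GRCh38.p14). Named genes were the 10 ligands; called genes of the further lists (also with the replicate block); detected receptors of the 10 ligands and further ligands with 3 counts or more in every sample of a group; the most abundant and defining markers; and the 5 genes with the highest Pearson r with CCL5 (log2 CPM, prior count 2). Other genes were chosen after their values were seen, among them ADAM10, ADAM17, CXCL9, CXCL11, CCL13, PF4, MYOD1, MYOG, MYF6, CHRNA1, CHRNG, FGFR4, CD68, CD3D, KLRD1, NCR1, TYROBP and VWF. Some genes of the further lists are not reported here. The members and lists were chosen with earlier results of these data known.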

Additional observations from a re-analysis of the deposited data

Results flagged for a closer look

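The CPM values of CXCL1 in the 4 untreated samples were 0, 0, 0 and 0.0485. Untreated replicate 4 stood apart from the other 3 by the whole range of the group (gap over range 1), and it rests on 3 counts. Since the other 3 values are 0, any count above 0 gives this value, so it says nothing about how unusual the sample is. It was 1 of 21 genes examined in this way, and groups of 3 samples were not examined. Why this sample differed was not tested.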

How the results depend on the processing

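CCL5 was called under each of the 14 alternatives, with log2 fold changes from 4.40 to 5.01 and adjusted p up to 0.0159. Of the other 7 tested ligands, CX3CL1 passed the threshold with DESeq2 (log2 fold change 1.06 on the same genes and 1.06 on all genes with a count), which made 2 called ligands in each of these fits. CCL2 and CXCL2 changed sign when 1 sample was left out, with ranges of -0.0058 to 0.71 and -0.44 to 0.0216. The number of all genes called was 242 without the filter on low counts, 447 with DESeq2 on the same genes, 408 with DESeq2 on all genes with a count, and 38 to 89 with 1 sample left out. The cause was not tested. With halved counts CXCL2 was not among the tested genes.

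The replicate numbers were checked for pairing. Deviations from the group means correlated at 0.462, 0.438 and 0.0847 in replicates 2, 3 and 4, and the last is not over 0.1. The meaning of the shared labels is not given, so the test did not take the samples as paired. With the untreated mean taken over the 3 partnered samples only, a calculation added after these values were seen, the correlations were 0.515, 0.322 and 0.197, all over 0.1, so this decision, made with the calls of both fits known, depends on how the mean is taken. BV6 replicate 4 correlated best with untreated replicate 1 (0.278). The replicate block gave 218 called genes in place of 104, with 1 called ligand, CCL5; RELB and NFKB1 were called with it (adjusted p = 0.0322 and 0.0454, edgeR), and CX3CL1 and GBP4 were not (adjusted p = 0.051 and 0.0866). At this depth a change in CXCL1, CXCL10 or other ligands of few counts could not be measured precisely.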
